A study of Drosophila melanogaster with 6 samples.

Results

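Methotrexate is an antifolate, a drug that blocks the use of folate by cells. Cells then run short of the one-carbon units needed to make thymidylate and purines, so that DNA synthesis is the process most directly exposed. S3 cells are Schneider's line 3, an established line derived from Drosophila melanogaster embryos and grown in culture.

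The S3 part of the study held 4 of its 6 arrays, each comparing RNA of S3 cells kept with 5.2e-08 M methotrexate (MTX) for 4 days with RNA of S3 cells kept without it. The other 2 arrays compared ovaries of flies kept with 5 ppm MTX for 5 days with ovaries of flies kept without it, on a different array design. The arrays were 2-colour spotted cDNA arrays, on which both RNAs compete for the same spots, so that every array gives a ratio and no level. The treated RNA was labelled with Cy3 on arrays 1, 3 and 4 and with Cy5 on array 2. The sources used here do not say whether the 4 arrays came from separate cultures, and the p-values therefore measure only the spread between these arrays, which may be technical. No genotype beyond the line's name was given, and ratios did not allow the line to be checked against marker genes.

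Of the 27648 spots on the S3 design, 15116 were assigned to exactly 1 gene, 102 to several and 12430 to none. Averaging the spots of a gene gave 6795 genes, of which 6764 had a value on all 4 arrays and were tested. Depth does not apply to arrays, and the number of arrays limits the precision.

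The deposited log ratios were taken as log2. The sources used here state neither which RNA is the numerator nor whether array 2 was already turned to match the others, so values are called positive or negative and no gene is called higher or lower with MTX. If the ratios were formed by treatment, array 2 as deposited runs the same way as the other arrays. If they were formed by dye, array 2 runs the opposite way and has to be turned. A gene with 1 sign on all 4 arrays as deposited may therefore reflect a treatment difference, a dye or spot effect, or chance, and these cannot be told apart. The overall counts and each gene list are given in both readings, and the leading genes of each reading are named. Values of single S3 genes are with array 2 as deposited unless stated. In RNA from whole cultures, fewer cells of a kind and less RNA per cell cannot be told apart.

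The 4 arrays were only weakly alike. Each spot was centred on the median of its print block, and 2 arrays at a time were compared across the 6764 genes. Their Pearson correlation then lay between 0.0605 (arrays 2 and 3) and 0.180 (arrays 1 and 4). All 6 pairs were above 0 with array 2 as deposited. Before centring, r was -0.187 for arrays 1 and 2 and -0.0798 for arrays 2 and 3. The other pairs lay between 0.0541 and 0.206. After centring, the share of genes with the same sign on both arrays of a pair lay between 50.9% and 57.8%. Genes are not independent replicates, so these are descriptions. Neighbouring spots of the same gene, 7558 pairs in all, correlated at 0.172, 0.143, 0.259 and 0.436 on arrays 1 to 4, and array 4 had the highest of these values. The centring mattered because the block medians themselves followed a pattern over the slide, spanning -0.429 to 0.488 on array 1 and -0.373 to 0.539 on array 2. The block medians of arrays 1 and 3 ran together (r = 0.788), as did those of arrays 2 and 4 (r = 0.654). Between these 2 pairs they were opposed, with r = -0.915 for arrays 1 and 2, -0.744 for 1 and 4, -0.835 for 2 and 3 and -0.511 for 3 and 4. Array 4, of the same dye orientation as arrays 1 and 3, thus ran with array 2.

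**Figure D1:**
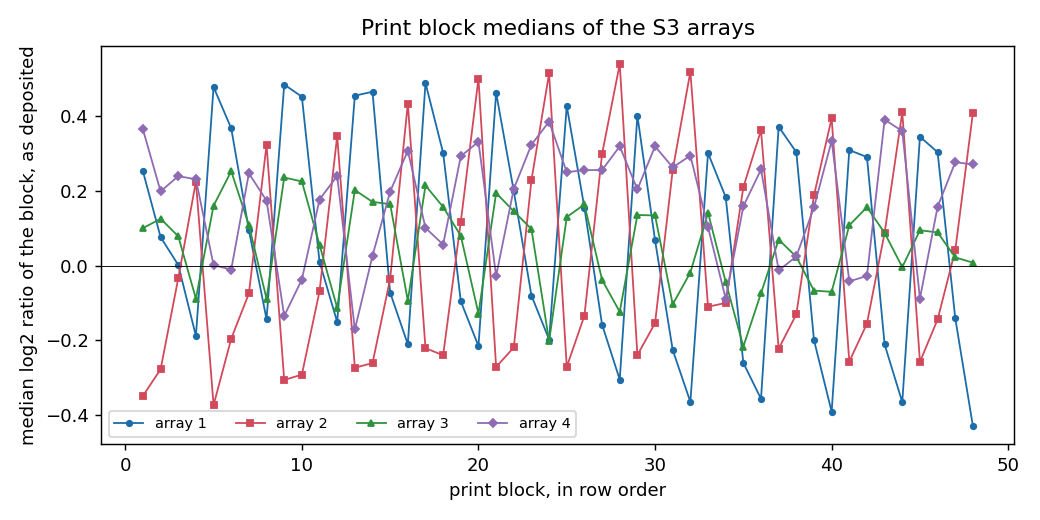
Median deposited log2 ratio of each of the 48 print blocks, in row order, on the 4 S3 arrays. Arrays 1 and 3 follow one course along the slide (r = 0.788 between their block medians), and arrays 2 and 4 another (r = 0.654) that is opposed to it (r from -0.915 to -0.511).

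With array 2 as deposited, no gene differed from a ratio of 1 by limma's test with Benjamini-Hochberg adjustment at 0.05 (0 of 6764, 0%). At an adjusted p below 0.10 there were 9 genes, or 0.133%, all negative. At an unadjusted p below 0.05 there were 429 negative genes (6.34%) and 215 positive genes (3.18%), so nominal calls lay more often on the negative side. This balance depended on whether the arrays were centred: without centring there were 197 negative and 238 positive genes. With array medians in place of block medians the lean stayed negative, at 297 and 120. The signs themselves were near balance, with 646 genes negative on all 4 arrays (9.55%) and 670 positive on all 4 (9.91%). The larger means were mostly negative: 32 genes had a mean below -1 and 6 a mean above 1.

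With array 2 turned, limma again called 0 genes (0%) at 0.05. The unadjusted counts were lower, at 224 negative genes (3.31%) and 107 positive genes (1.58%), and 491 genes (7.26%) were negative and 394 (5.82%) positive on all 4 arrays. Fewer genes had large means in this reading, 12 below -1 and 4 above 1. The smallest adjusted p was 0.864, against 0.0537 with array 2 as deposited.

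**Figure D2:**
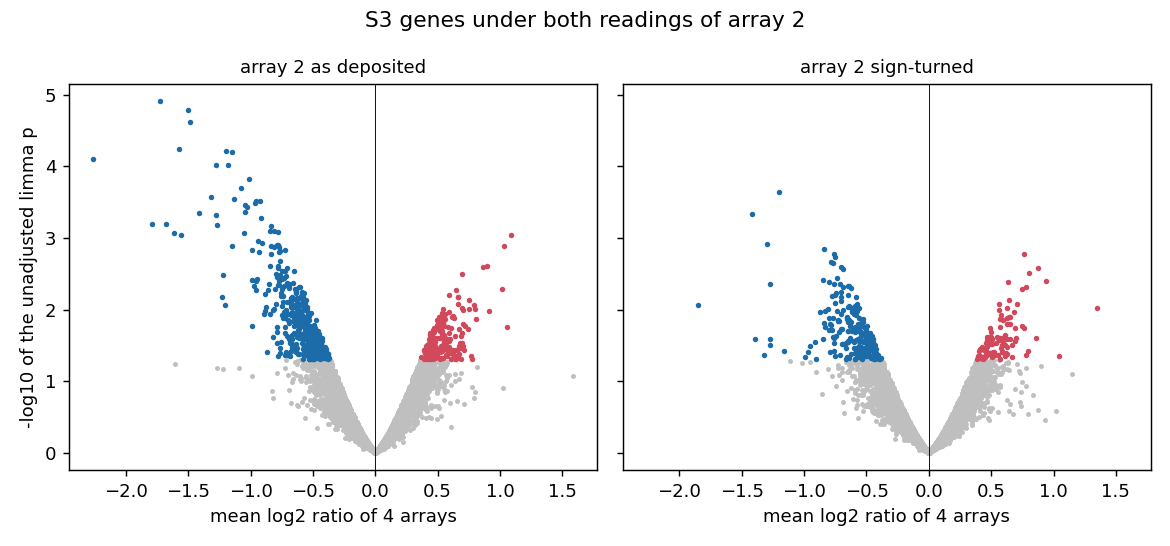
Mean log2 ratio over the 4 S3 arrays against -log10 of the unadjusted limma p for each of the 6764 genes, with array 2 as deposited (left) and turned (right). Blue (negative) and red (positive) points have an unadjusted p below 0.05; the lowest p-values lie on the negative side with array 2 as deposited, and no point in either panel passes an adjusted p of 0.05.

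The genes nearest to the threshold were all negative and included genes of secreted proteins, a sterol-binding protein and a lipase. fat-spondin, a secreted matrix protein of the spondin family, had log2 ratios of -2.26, -1.74, -1.27 and -1.63 on arrays 1 to 4. Its mean was -1.73 ± 0.41 (SD, n = 4 arrays; limma adjusted p = 0.0537). Every array lay clearly below 0, and with array 2 turned the mean was -0.85. Npc2a, a sterol-binding protein of the Niemann-Pick C2 family, had log2 ratios of -1.58, -1.07, -1.43 and -1.87 (mean -1.49 ± 0.33, SD, n = 4; limma adjusted p = 0.0537). The 4 values were spread over less than 1 log2 unit. CG16959, for which no role is given here, had -1.34, -1.20, -1.63 and -1.84 (mean -1.50 ± 0.29, SD, n = 4; limma adjusted p = 0.0537). Its duplicate spots on array 4 were far apart, at -3.23 and -0.44.

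CG15347 had the most negative mean of the leading genes, and its arrays were less even. Its log2 ratios were -2.44, -0.82, -3.03 and -2.76 (mean -2.26 ± 0.99, SD, n = 4; limma adjusted p = 0.0720). Array 2 was the least negative, and its value is the mean of duplicate spots at -1.83 and 0.19. Over arrays 1, 3 and 4 alone the mean was -2.74 ± 0.30 (SD, n = 3; limma adjusted p = 0.0117). It was then the only gene past 0.05, and this fit takes no side on the sign of array 2. Arrays 1, 3 and 4 share 1 dye orientation, so a treatment difference and a dye or spot effect cannot be told apart in this fit. With a dye term and array 2 as deposited, the mean of CG15347 was -1.78.

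The other genes with an adjusted p below 0.10 were Lip4, CG16743, Ance, Gs1 and spz. Lip4, a lipase, had log2 ratios of -1.14, -1.11, -2.08 and -1.97 (mean -1.57 ± 0.52, SD, n = 4; limma adjusted p = 0.0716). Ance, a homolog of the mammalian angiotensin-converting enzyme and a secreted peptidase, had -1.37, -1.05, -1.08 and -1.11 (mean -1.15 ± 0.14, SD, n = 4; limma adjusted p = 0.0716). Arrays 2, 3 and 4 were almost the same for Ance. Gs1, a glutamine synthetase, had -1.10, -0.92, -1.57 and -1.14 (mean -1.18 ± 0.27, SD, n = 4; limma adjusted p = 0.0720). spz, the precursor of the Toll ligand Spätzle, had -1.72, -0.95, -1.46 and -1.0 (mean -1.28 ± 0.37, SD, n = 4; limma adjusted p = 0.0720). CG16743 had a mean of -1.20 ± 0.20 (SD, n = 4). Behind these 9 came CG10359 (-1.02 ± 0.12), CG7378 (-1.08 ± 0.28) and cer, crammer, an inhibitor of cysteine proteases (-1.32 ± 0.56), with adjusted p-values of 0.101 to 0.138.

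On the positive side the leading genes were further from the threshold. Hsp68, a heat-inducible chaperone of the Hsp70 family, had log2 ratios of 1.41, 1.70, 0.64 and 0.63 (mean 1.09 ± 0.54, SD, n = 4; limma adjusted p = 0.186). Arrays 1 and 2 lay above 1 and arrays 3 and 4 well below it. Its mean was 0.24 with array 2 turned. Fife, a scaffold protein of synaptic active zones, had 0.93, 1.19, 0.35 and 1.64 (mean 1.03 ± 0.54, SD, n = 4; limma adjusted p = 0.218), with its duplicate spots on array 4 far apart at -0.23 and 3.51. mnd, minidiscs, an amino acid transporter, had 1.28, 0.91, 0.19 and 1.21 (mean 0.90 ± 0.50, SD, n = 4; limma adjusted p = 0.321). ImpL2, a secreted protein that binds insulin-like peptides, had 1.02, 1.05, 0.05 and 1.94 (mean 1.01 ± 0.77, SD, n = 4; limma adjusted p = 0.401), and array 3 gave nearly no difference.

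The remaining 8 positive leaders were CG4983 (0.87 ± 0.47), comr (0.70 ± 0.26), tobi (0.65 ± 0.28), eIF2beta (0.59 ± 0.19), Fkbp14 (0.67 ± 0.36), CG10576 (0.66 ± 0.36), Pgant8 (0.75 ± 0.52) and Gbs-76A (0.67 ± 0.41), all as mean log2 ratio ± SD over 4 arrays. Among them comr is a regulator of meiotic genes in the testis, tobi an alpha-glucosidase, eIF2beta a subunit of the initiation factor that delivers the first tRNA, and Gbs-76A a glycogen-targeting subunit of protein phosphatase 1. Their adjusted p-values lay between 0.324 and 0.454.

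**Figure D3:**
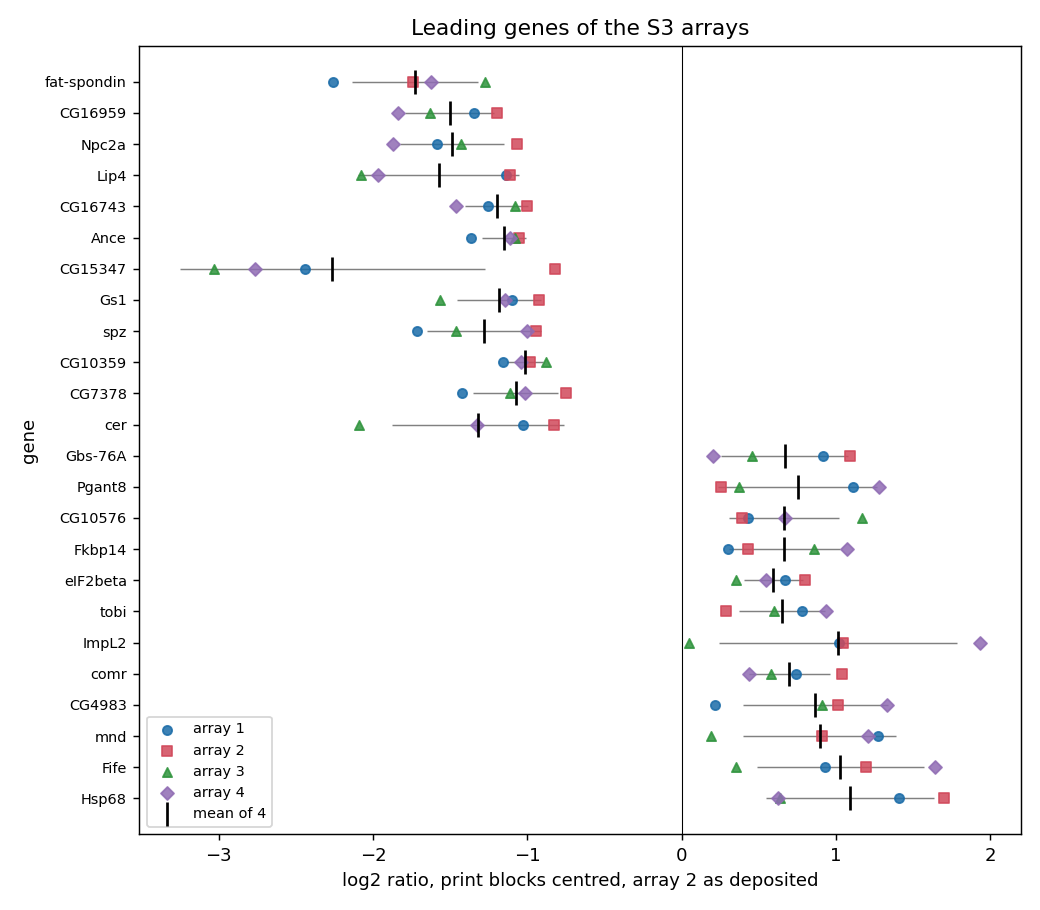
Log2 ratio of the 12 leading negative and 12 leading positive genes on each of the 4 S3 arrays (coloured points), array 2 as deposited, with the mean as a black tick and a grey line of 1 SD to each side. The negative genes lie below 0 and the positive genes above 0 on every array, since a shared sign was part of the choice, and array 3 lies nearest to 0 for mnd and ImpL2.

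With array 2 turned, other genes led. On the negative side these were CG11426 (mean log2 ratio -1.21), Dbp73D, a DEAD-box RNA helicase (-1.42), CG7829 (-1.29), png, a kinase known from egg activation (-0.84), CG5355 (-0.76) and CG31125 (-0.76). On the positive side they were HSPBAP1 (0.76), CG9717 (0.88), CG14329 (0.80), dpr15, a cell-surface immunoglobulin protein (0.94), Mdr65, an ATP-binding cassette transporter of the multidrug-resistance type (0.64), and Lectin-galC1, a galactose-binding lectin (0.78). None had an adjusted p below 0.864. Duplicate spots were far apart for some of these genes. They were at -2.23 and 0.65 for CG11426 on array 1, and at 2.72 and -0.04 for CG7829 on array 2 as deposited. The values of CG9717 on arrays 1, 3 and 4 were 0.58, 1.45 and 1.03, with -0.45 on array 2 as deposited.

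Genes of folate use gave values that differed between arrays. Ts, thymidylate synthase, had log2 ratios of 0.08, 0.37, 0.68 and -1.21 (mean -0.02 ± 0.83, SD, n = 4; limma adjusted p = 0.985), and array 4 was negative on both duplicate spots while the mean of the spots was positive on the other 3. Fpgs1, folylpolyglutamate synthase, which adds the glutamate tail that retains folates and MTX in cells, had -0.30, -0.24, -0.44 and -0.60 (mean -0.40 ± 0.16, SD, n = 4; limma adjusted p = 0.509). Bhmt, which passes a methyl group to homocysteine, had -1.62, -0.16, -0.55 and -1.19 (mean -0.88 ± 0.65, SD, n = 4; limma adjusted p = 0.423).

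The folate and one-carbon list held 15 measured genes, 11 of them negative, with a median of -0.15 against -0.005 over all genes tested. Of these, 2 were negative and 0 positive at an unadjusted p below 0.05, namely Bhmt and Fpgs1, beside 6.34% negative and 3.18% positive over all genes. In the same list, with array 2 turned 8 of 15 were negative (median -0.02), with 1 negative and 1 positive below an unadjusted p of 0.05, beside 3.31% and 1.58% over all genes in that reading. Of 9 purine genes 4 were negative, with a median of 0.02. The 1 below an unadjusted p of 0.05 was ry, xanthine dehydrogenase (-0.40 ± 0.27), which degrades purines. Of 6 pyrimidine and deoxynucleotide genes 3 were negative and none was below an unadjusted p of 0.05 on either side. The turned counts were 4 of 9 and 5 of 6 negative, with none below an unadjusted p of 0.05. No gene of any list passed the adjusted threshold in either reading of array 2. All lists, here and below, were chosen with earlier results of these data known, so their counts and shares are descriptions only.

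DNA replication genes were split. Of 28 measured, 17 were negative, with a median of -0.10, and 5 negative and 1 positive were below an unadjusted p of 0.05 (17.9% and 3.57%, beside 6.34% and 3.18% of all genes). When array 2 was turned, 16 of 28 were negative (median -0.09). Then 1 negative and 0 positive were below an unadjusted p of 0.05, beside 3.31% and 1.58% of all genes. As deposited, the negative genes were Orc5 (-0.95 ± 0.64) and Orc4 (-0.54), subunits of the origin recognition complex, RPA1 (-0.63 ± 0.24) and RPA3 (-0.55 ± 0.22), which coat single-stranded DNA, and Mcm5 (-0.52), part of the replicative helicase. The positive gene was Fen1, the flap endonuclease of Okazaki fragments (0.72). Orc5 ranged from -1.61 on array 1 to -0.18 on array 4, whereas RPA3 lay between -0.84 and -0.32 on every array. Among the members of a list, those beyond the 3 with the lowest p were named here and below after their values were seen.

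Cell cycle, DNA damage and apoptosis lists gave 1 call each at an unadjusted p below 0.05. This was 4.17% of the cell cycle list (positive), 4.76% of the DNA damage list and 20% of the apoptosis list (both negative). Over all genes the shares were 6.34% negative and 3.18% positive. Of 24 cell cycle genes 14 were negative (median -0.04), and the 1 gene below an unadjusted p of 0.05 was Cdk2, positive at 0.48 ± 0.36. Of 21 DNA damage genes 11 were negative (median -0.03), and the 1 such gene was mre11, a nuclease of double-strand break repair, with -0.91, 0.04, -1.06 and -0.61 (mean -0.64 ± 0.49). Array 2 was near 0 for mre11 and the other 3 were negative. Of 5 apoptosis genes 4 were negative, and Dark, the fly homolog of Apaf-1, had -0.44, -1.13, -0.29 and -1.36 (mean -0.81 ± 0.52). The turned counts of negative genes were 13 of 24, 9 of 21 and 4 of 5. In these lists 1 positive, 1 negative and 0 genes were then below an unadjusted p of 0.05. Over all genes the shares in that reading were 3.31% negative and 1.58% positive.

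Genes of detoxification were mostly negative. The cytochrome P450 list, enzymes that oxidise foreign and endogenous compounds, held 71 measured genes, and 55 of them (77.5%) were negative, against 50.8% of all genes tested. At an unadjusted p below 0.05 there were 11 negative and 1 positive, or 15.5% and 1.41% of the list, beside 6.34% and 3.18% of all genes. On all 4 arrays 14 were negative and 1 positive (19.7% and 1.41%, beside 9.55% and 9.91% of all genes). The list median was -0.05, -0.10, -0.23 and -0.24 on arrays 1 to 4, below that of all genes on each. In the turned reading 48 of 71 were negative (67.6%, beside 51.4% of all genes). There were then 5 negative and 0 positive below an unadjusted p of 0.05, beside 3.31% and 1.58% of all genes. Cyp12a4 was the most even of the 3 named members across arrays, at -0.69, -0.51, -0.72 and -0.67 (mean -0.65 ± 0.09, SD, n = 4; limma adjusted p = 0.342). Its 6 spots were less even, with means from -1.04 to -0.19, and with the median of its spots the mean was -0.51. Cyp6a8 had a mean of -0.78 ± 0.35 and Cyp9f2 of -0.57 ± 0.17. A pair of neighbouring Cyp9f2 spots had means of -0.92 and 0.79. P450 genes resemble each other in sequence, and a cDNA spot can bind RNA of close relatives, so neighbouring family members are not independent.

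Of 35 glutathione transferase and UDP-glycosyltransferase genes, which conjugate compounds for removal, 26 were negative, with a median of -0.18. There were 7 negative and 3 positive below an unadjusted p of 0.05 (20% and 8.57%, beside 6.34% and 3.18% of all genes). GstO3 had -1.10, -0.43, -1.32 and -0.53 (mean -0.84 ± 0.43), GstD2 a mean of -0.69 ± 0.32, and GstZ2, of the zeta class, was positive at 0.70 ± 0.49. GstD genes are close paralogs and could share signal. When array 2 was turned, 17 of 35 were negative and the median was 0.01. Then 1 gene on each side was below an unadjusted p of 0.05, beside 3.31% negative and 1.58% positive of all genes. The lean to the negative side was thus not there in that reading. In the oxidative stress list of 11 genes the 1 below an unadjusted p of 0.05 was Sod3, an extracellular superoxide dismutase, with -0.72, -0.66, -0.82 and -0.69 (mean -0.72 ± 0.07, SD, n = 4; limma adjusted p = 0.227). Its duplicate spots were further apart than its arrays, with means of -0.35 and -1.09 and values of 0.11 and -1.43 on array 2. The turned reading of this list had 6 of 11 negative and none below an unadjusted p of 0.05.

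**Figure D4:**
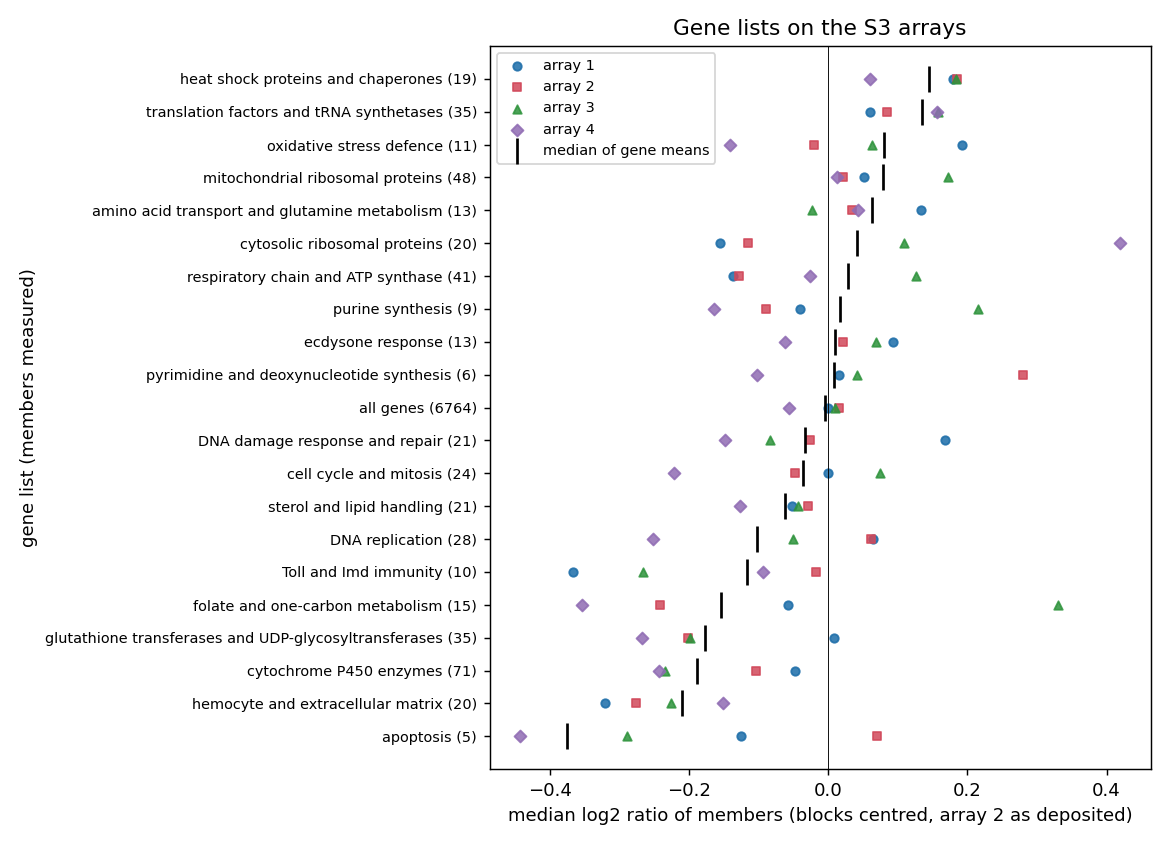
Median log2 ratio of the members of each of the 20 gene lists, and of all genes tested, on each of the 4 S3 arrays (coloured points) with array 2 as deposited. Black ticks mark the median of the gene means, and the number measured follows each list's name. The hemocyte, P450, Toll and Imd, and sterol and lipid lists lie below 0 on all 4 arrays, and the heat shock, translation factor and mitochondrial ribosomal lists above 0 on all 4.

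Heat shock and chaperone genes lay on the positive side. Of 19 measured, 15 were positive, with a median of 0.14, and 5 positive and 0 negative were below an unadjusted p of 0.05 (26.3% positive, beside 3.18% of all genes). Besides Hsp68 these were CCT1 (0.52 ± 0.46), CCT2 (0.51 ± 0.26) and CCT7 (0.41), subunits of the cytosolic chaperonin that folds actin and tubulin, and Hsp60D (0.65). CCT2 was positive on every array, at 0.46, 0.19, 0.80 and 0.61. Hsp60D rested on array 1, where it was 1.72 against at most 0.37 on the others. In the turned reading 13 of 19 were positive and the median was 0.04. Then 1 gene on each side was below an unadjusted p of 0.05, beside 3.31% negative and 1.58% positive of all genes.

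Translation genes leaned the same way. Of 35 translation factors and tRNA synthetases 25 were positive, with a median of 0.13, and 10 (28.6%) were positive and 0 negative on all 4 arrays, beside 9.91% and 9.55% of all genes. eIF2beta, eIF3c (0.54 ± 0.40) and IleRS, the isoleucyl-tRNA synthetase (0.40 ± 0.17), were the 3 below an unadjusted p of 0.05, all positive (8.57%, beside 3.18% of all genes). The turned reading had 20 of 35 positive, a median of 0.09 and no gene below an unadjusted p of 0.05. Of 20 cytosolic ribosomal protein genes 13 were positive, but their median was -0.16, -0.12, 0.11 and 0.42 on arrays 1 to 4, so the arrays disagreed, and none was below an unadjusted p of 0.05. Of 48 mitochondrial ribosomal protein genes 30 were positive (median 0.08). Of this list 1 negative and 3 positive were below an unadjusted p of 0.05 (2.08% and 6.25%, beside 6.34% and 3.18% of all genes). Of 41 respiratory chain genes 21 were positive (median 0.03), with 2 negative and 1 positive below that p (4.88% and 2.44%). The named members were COX4 (-0.52 ± 0.42), COX6CL (-0.43 ± 0.28) and ND-15 (0.50 ± 0.44). In the turned reading 16 of 20, 32 of 48 and 22 of 41 genes of these 3 lists were positive. In the same order 1 positive, 1 on each side and 1 negative were below an unadjusted p of 0.05. The shares of all genes were then 3.31% negative and 1.58% positive.

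Hemocyte and matrix genes held several of the most negative values. Of 20 measured, 14 were negative, with a median of -0.21, and 6 negative and 1 positive were below an unadjusted p of 0.05 (30.0% and 5.00%, beside 6.34% and 3.18% of all genes). Besides fat-spondin and Ance these were crq, croquemort, a scavenger receptor for dying cells (-0.95 ± 0.19), Glt, glutactin of basement membranes (-1.04 ± 0.34), Nplp2, a neuropeptide-like precursor (-0.96 ± 0.72), and Tep4, a thioester-containing immune protein (-0.79 ± 0.79). crq was even, at -1.13, -0.86, -1.09 and -0.73, whereas Nplp2 was at 0.05 on array 4 and Tep4 at 0.19 on array 1. The positive gene was Pvr, a receptor tyrosine kinase of hemocytes (0.49). The other members were above that p and lay on both sides of 0. Negative ones included Hml (-0.30), Pxn (-0.18), Col4a1 (-0.18) and NimC1 (-0.15). Positive ones were LanA (0.51), LanB1 (0.35), SPARC (0.23), PPO2 (0.14) and eater (0.01). The list median was -0.19 with array 2 turned, and no gene of the list was then below an unadjusted p of 0.05. This list and the Toll and Imd and sterol and lipid lists below hold leading genes. They were chosen with earlier results known, so their shares are not independent of those genes.

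Of 10 Toll and Imd genes 7 were negative, with 4 negative and 0 positive below an unadjusted p of 0.05 (40.0% negative, beside 6.34% of all genes). They included spz, and Tl, its receptor (-0.52 ± 0.47). Drs, the antifungal peptide drosomycin, had -2.28, -1.45, -1.40 and -0.53 (mean -1.41 ± 0.71, SD, n = 4; limma adjusted p = 0.152), and its duplicate spots on array 4 were at -1.22 and 0.15. PGRP-LE, a peptidoglycan receptor, had a mean of -0.60 ± 0.52. When array 2 was turned, 8 of 10 were negative but none was below an unadjusted p of 0.05, and the means were -0.69 for Drs and -0.03 for PGRP-LE. Ecdysone response genes were balanced, with 6 of 13 negative. ImpL2 was the 1 below an unadjusted p of 0.05, on the positive side (7.69%, beside 3.18% of all genes). Turned, 6 of 13 were negative, with 1 positive gene below that p, beside 1.58% of all genes in that reading.

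Of 21 sterol and lipid genes 15 were negative (median -0.06), with 3 negative and 1 positive below an unadjusted p of 0.05 (14.3% and 4.76%, beside 6.34% and 3.18% of all genes). Npc2b, a relative of Npc2a, had -1.02, -0.76, -1.90 and -0.20 (mean -0.97 ± 0.70), and with Npc2a and Lip4 made up the negative genes. FASN1, fatty acid synthase, was the positive one (0.59). The turned reading had 14 of 21 negative. Then 1 negative and 0 positive were below an unadjusted p of 0.05, beside 3.31% and 1.58% of all genes. Of 13 amino acid transport and glutamine genes 6 were negative. Gs1 was negative, while the transporters mnd and JhI-21 were positive (JhI-21 0.71 ± 0.52), so that genes of this list pointed both ways. Turned, 7 of 13 were negative and none was below an unadjusted p of 0.05.

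A further description, added after the values had been seen, used ranks within each array. For each array the lowest and the highest 5% of genes were taken, 338 genes each. Of the genes lowest on array 1, 19.5% were also among the lowest on array 2 and 18.9% on array 3, whereas 8.58% were among the highest on array 2. For the highest genes of array 1, 9.47% were also among the highest on array 2. Over all 6 pairs of arrays the low genes were shared by 11.0% to 19.5% and the high genes by 2.37% to 9.47%. With array 2 as deposited, 15 genes were among the lowest on all 4 arrays and 0 among the highest on all 4. The 15 included all 12 leading negative genes, and also CG8032, Nasp and Usp14. No gene was among the lowest on arrays 1, 3 and 4 and the highest on array 2, so with array 2 turned the count was 0.

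**Figure D5:**
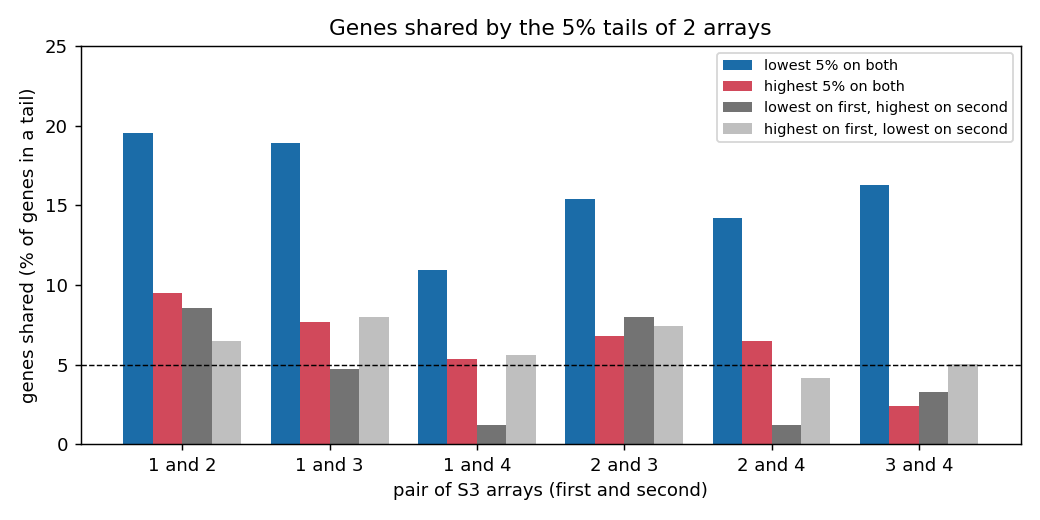
Share of the 338 genes in the lowest or highest 5% of one S3 array that were in the same or the opposite 5% of another, for each pair of arrays, array 2 as deposited. The dashed line stands at 5%, the size of each tail. The share that was low on both is the tallest bar for all 6 pairs, between 11.0% and 19.5%.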

How the data were processed

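The authors deposited the log2 ratio of both channels of each spot (base 2 is assumed), calculated from the scanned arrays before deposit. The base, the numerator, the background correction and the normalisation are not given in the sources used here. Per the labels, each array carried both RNAs in separate dyes. Spots annotated to exactly 1 gene by the platform's gene table were centred on the median of their print block (48 blocks of 576 spots, in row order, a layout inferred from the spot count), then averaged per gene; symbols were updated through RefSeq's gene table (6692 of 6795 matched). limma 3.58.1 in R 4.3.3 tested the mean ratio of the 4 arrays against 0 (two-sided, Benjamini-Hochberg over 6764 genes, threshold 0.05), with array 2 as deposited and turned. The script was tested on simulated data. The genes named were, per side, the 12 with the largest moderated t and 1 sign on all 4 arrays (6 with array 2 turned, and 6 over arrays 1, 3 and 4, of which some are printed), up to 3 per list, and Ts and Fpgs1. Members, lists and rules were chosen with earlier results of these data known. Gene lists were described by counts and medians, with no test. Alternatives covered the centring, the averaging, the filter, the dye, the threshold and each array left out.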

Additional observations from a re-analysis of the deposited data

Results flagged for a closer look

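In 108 sets of 4 array values (88 named genes and 20 list medians), 6 had 1 array far from the other 3 by Dixon's ratio for 4 values, and chance flags about 1 in 20 sets. Array 2 stood apart for CG31125, at 0.9992 against -0.74 to -0.62 on the others, for Mdr65, at -0.6584 against 0.53 to 0.69, and for mRpL13, a mitochondrial ribosomal protein gene, at -1.2465 against -0.42 to -0.28. The choice of genes with array 2 turned favours this pattern for the first 2. Array 1 stood apart for CG8665, a gene of the folate list, at -0.7926 against -0.22 to -0.13. Array 4 stood apart for RpS7, a ribosomal protein gene, at 1.1846 against 0.17 to 0.29. The median of the heat shock and chaperone list was 0.0604 on array 4 and 0.18 to 0.19 on the others.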

How the results depend on the processing

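The count of genes past an adjusted p of 0.05 was 0 and became 3 with array medians in place of block medians (CG15347, fat-spondin and CG16959), 5 without centring (these and Npc2a and Lip4), 2 with arrays put on 1 scale (Npc2a and CG16959) and 3 with the median of a gene's spots (Npc2a, fat-spondin and CG16959). All were negative. A dye term gave 1, CG12115, named after its value was seen, which rested on -5.24 on array 2. A threshold of 0.10 gave 9. Leaving out genes whose spots disagreed in sign also gave 9, of 4242 genes tested, a filter that uses the ratios themselves. Leaving out 1 array gave 0 to 1 genes, the 1 being CG15347 without array 2. The cause of these moves was not tested. Robust fitting, spots in place of genes, and genes with at least 3 arrays gave 0. With array 2 turned 28 of the 88 named genes moved by more than their SD, and 3 changed sign. Of the 20 list medians 5 changed sign with array 2 turned, 1 to 5 when 1 array was left out (5 without array 1, 4 without array 3) and 3 without centring, where 5 moved by more than their SD. With array medians 7 genes, all among the 15, were lowest on all 4 arrays, with the median of spots 15, and with array 2 turned 0. No paired analysis was possible because each S3 array already compares treated with untreated RNA, and the ovary arrays of the same number are other material on another design.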

Other observations

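CG8032, Arc1, Usp14 and Nasp, named after their values were seen, shared 1 profile over the 4 arrays and lay at the same places within their print blocks. CG8032 and Arc1 lay in block 6 at positions 203 to 204 and 207 to 208, and Usp14 and Nasp at the same positions of block 8. Their log2 ratios ran from -1.18 to -0.90 on array 1, from -0.82 to -0.69 on array 2, from -3.20 to -2.79 on array 3 and from -2.22 to -1.66 on array 4. The largest difference between any 2 of them on an array was 0.239 to 0.556, whereas the nearest other gene of the low group differed from them by 0.708. The genes printed between them did not share the profile: MED19 had 0.02, 0.37, -0.30 and -0.18, and pll 0.19, 0.29, 0.27 and -0.24. CG8032, Nasp and Usp14 are 3 of the 15 genes among the lowest on all 4 arrays. Ets21C and cer, both in block 41, differed by at most 0.177 on any array. The part of print position or of shared sequence in these values was not tested.

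Of 13681 neighbouring pairs of spots, 7513 carried a gene and 6168 did not. On all 4 arrays 14 pairs were among the lowest 684, 7 with a gene and 7 without, and 1 pair, without a gene, was among the highest. By chromosome arm the median mean ratio of the genes was between -0.0216 (3L, 1277 genes) and 0.0049 (3R, 1681 genes).

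Of the 24 leading genes 5 were also on the ovary design, on which the sign is unsettled too, and the values are set side by side with no comparison. On ovary arrays 1 and 2, centred on the array median, CG16959 had -1.03 and -0.79, Hsp68 -1.93 and -0.80, ImpL2 -1.20 and -0.88, Fkbp14 0.49 and -0.47, and Gbs-76A 1.48 and 0.48.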
